A study of Mus musculus with 9 samples.

Results

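The comparison set all libraries from PD-1 treated 4T1 samples against the control libraries, to ask what both treated groups shared. It used 9 of the 9 libraries of the series, 6 treated and 3 control, chosen by their labels. The treated side holds 3 libraries labelled PD-1 and 3 labelled LY500307+PD-1. 4T1 is a mouse mammary carcinoma line from BALB/c mice. PD-1 is an inhibitory receptor of T cells, and LY500307 activates estrogen receptor beta. Rather than a knockout or transgene, the groups differ only in the treatment their labels name, and the control is described by the word control alone. Among the PD-1 libraries, the treatment label of replicates 2 and 3 has another number after PD, and both were placed by their titles. Dose, time, the agent that acts on PD-1, and the source of the cells, a dish or a tumour, are not given in the labels. Nor do the labels tell whether each replicate was its own culture or animal, and p-values here therefore measure the spread between libraries, which may be technical.

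When PD-1 on a T cell binds its ligand PD-L1 (Cd274), signalling through the T cell receptor is damped, and antibodies that block the pair release it. Activated T and NK cells secrete interferon gamma, which induces guanylate-binding proteins, immunity-related GTPases, chemokines such as Cxcl10 and the antigen presentation machinery. Type I interferons induce an overlapping set of antiviral genes through factors that bind the interferon-stimulated response element, a repeat of GAAA in promoters.

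Because the interferon lists held most of the list members that were higher in every treated library, the promoters of 4 of them are shown, from 250 bases before to 50 after the start, as given by RefSeq on GRCm38.p6. Capitals mark each match to GAAANNGAAA on either strand, and overlapping matches run together. The Isg15 promoter (chr4:156200769-156201068, minus strand) holds 3 overlapping matches. Ifit3 (chr19:34583279-34583578, plus strand) holds 2, while Gbp7 (chr3:142530086-142530385, plus strand) and Igtp (chr11:58199306-58199605, plus strand) hold 1 each.
Isg15: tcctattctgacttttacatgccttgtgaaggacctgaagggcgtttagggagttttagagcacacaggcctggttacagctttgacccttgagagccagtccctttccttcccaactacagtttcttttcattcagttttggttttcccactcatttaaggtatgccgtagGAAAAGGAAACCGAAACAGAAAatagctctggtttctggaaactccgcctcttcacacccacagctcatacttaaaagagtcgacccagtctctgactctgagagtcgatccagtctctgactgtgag
Ifit3: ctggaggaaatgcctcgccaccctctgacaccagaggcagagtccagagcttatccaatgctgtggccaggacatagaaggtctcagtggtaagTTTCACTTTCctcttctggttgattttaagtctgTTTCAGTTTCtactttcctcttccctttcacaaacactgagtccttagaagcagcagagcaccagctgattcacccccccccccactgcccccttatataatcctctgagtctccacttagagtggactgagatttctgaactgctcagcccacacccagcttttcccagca
Gbp7: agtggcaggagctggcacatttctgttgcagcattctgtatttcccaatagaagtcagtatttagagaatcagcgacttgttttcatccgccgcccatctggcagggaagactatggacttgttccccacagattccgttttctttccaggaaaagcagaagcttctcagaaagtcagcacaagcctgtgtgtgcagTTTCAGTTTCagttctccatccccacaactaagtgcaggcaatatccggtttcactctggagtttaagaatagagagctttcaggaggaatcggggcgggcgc
Igtp: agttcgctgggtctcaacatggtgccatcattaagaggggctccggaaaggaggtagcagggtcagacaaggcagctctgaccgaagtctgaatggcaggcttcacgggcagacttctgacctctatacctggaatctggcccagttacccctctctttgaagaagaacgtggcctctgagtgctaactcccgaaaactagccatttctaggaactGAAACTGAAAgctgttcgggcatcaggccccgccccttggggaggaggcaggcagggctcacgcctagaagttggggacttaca
Of 27025 genes with a promoter in the RefSeq table, 1079 (3.99%) held the motif in at least 1 promoter, as did 363 of the 9481 tested genes with an entry (3.83%). Among genes with an entry, it was found in 11 of 19 of the type I interferon list and in 11 of 15 of the interferon gamma list. Among genes higher in every treated library than in every control library, 12 of 83 with an entry held it (14.5%). For genes lower in every treated library it was 4 of 102 (3.92%). The higher set was picked from these data and holds 8 members of the type I interferon list and 2 of the interferon gamma list. Its share is therefore tied to their presence, and nothing further is read from it. A match describes the sequence and does not show that a factor binds there.

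Expression was deposited as 1 value per gene and library, read here as FPKM, fragments scaled to transcript length and to the mapped total. The values of a library summed to between 348764 and 370214, and 20701 to 21480 genes were above 0. Depth was estimated from the step between low values, searched within a preset range, with 2 steps taken as 1 fragment. That reading of the step was not tested. On it, depth lay between 8270000 and 8700000 fragments. Only 25.1% to 34.8% of low values were within 0.02 of a whole step, so it is approximate. Of the epithelial markers, Epcam was between 98.5 and 281 FPKM and Krt8 between 477 and 1249. Others were low: Ovol1 was between 0.607 and 1.52 FPKM, and Cldn3 did not pass the filter on low values. Krt5 was 0.0544 to 2.73 FPKM in control, 0.134 to 0.580 in PD-1 and 1.38 to 64.4 in LY500307+PD-1 libraries. Libraries also held transcripts of other cells: the summed level of 25 listed T and NK cell genes ran from 63.2 to 146 FPKM in control libraries and from 80.4 to 143 in treated ones, and of the B and plasma cell genes, Ms4a1 was at or near 0 while Ighm ran from 1.39 to 12.2 FPKM and Igkc from 2.05 to 12.2. In such bulk RNA, fewer cells of a type and less RNA per cell cannot be told apart. LY500307+PD-1 replicate 2 stood apart from the other treated libraries, with the highest score for mammary epithelium (0.89, next 0.04) and for skeletal muscle (1.29, next 0.15) and the lowest for T and NK cells (-0.40, next 0.06). A score is the mean over a list's tested genes of each gene's log2(FPKM + 1) minus its mean over the 9 libraries. Results that rest on this library are given with and without it.

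No gene passed the test in either direction. Among 13990 genes that reached 1 FPKM in 3 or more of the libraries, limma called 0 higher and 0 lower at an adjusted p under 0.05 (Benjamini-Hochberg), and the smallest adjusted p was 0.145, for Phospho1. At an unadjusted p under 0.05, 224 genes were higher (1.60%) and 229 lower (1.64%), and the lower count was 399 without control replicate 2. Every treated library was above every control library for 117 genes (0.836%) and below for 140 (1.00%), together 257 (1.84%). Of these, 30 were higher (0.214%) and 27 lower (0.193%) by at least 0.5 on the log2(FPKM + 1) scale. Over all genes the median log2 fold change was -0.0045 and its median standard error 0.15. The absolute change had a median of 0.10 over all genes and 0.30 over the 257 genes without overlap. Of the 257, 217 (84.4%) were protein coding, against 83.1% of all genes tested.

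The 9 libraries can be divided into 3 and 6 in 84 ways. Control against treated gave 257 genes without overlap. Over the 84 divisions the count ran from 136 to 887, with a median of 301.5, and 56 had at least 257 (exact one-sided permutation p = 0.667). Between-side variance, as a share of the total over genes, was 10.2% for control against treated, with a range of 8.73% to 19.4%, and 70 of 84 divisions were as high (exact one-sided permutation p = 0.833). Libraries correlated across tested genes at a median r of 0.970 for the 15 treated pairs, 0.965 for the 18 pairs of a control and a treated library and 0.956 for the 3 control pairs. These are correlations across genes, which are not independent replicates, and all pairs share the same gene set. So the labelled division did not stand apart from the other divisions on either measure.

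**Figure D1:**
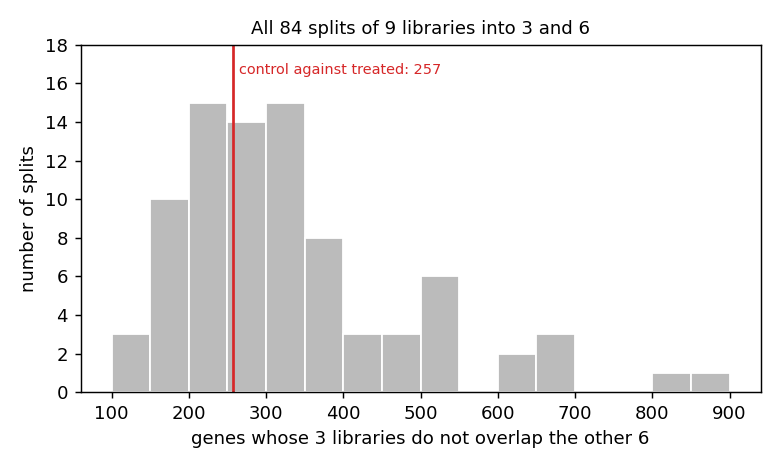
Number of genes whose 3 libraries do not overlap the other 6 (horizontal axis) for each of the 84 ways to divide the 9 libraries (vertical axis, number of divisions). The red line marks control against treated at 257, below the median of 301.5.

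Among the genes higher in every treated library, Sept8 had the largest log2 fold change of those with an adjusted p under 0.5. Sept8 (ENSMUSG00000018398.18, GRCm38 chr11:53519257-53549565) encodes a septin, a GTP-binding protein of the cytoskeleton. Its level was 6.07, 6.19 and 7.57 FPKM in control, 19.7, 22.1 and 19.3 in PD-1 and 10.4, 17.98 and 18.7 in LY500307+PD-1 libraries. The lowest treated library, LY500307+PD-1 replicate 1, was still above the highest control. The means were 6.61 ± 0.836 (SD, n = 3) and 18.04 ± 4.01 (SD, n = 6) FPKM, and the log2 fold change was 1.30 (SE 0.20, limma adjusted p = 0.473). It was 1.49 (SE 0.20) for PD-1 and 1.10 (SE 0.20) for LY500307+PD-1, groups that share the 3 control libraries. Left without LY500307+PD-1 replicate 1, Sept8 passed the test, with a log2 fold change of 1.44 and an adjusted p of 0.0038 by limma. It passed with no other library left out. Leaving out the lowest treated value narrows the spread, so nothing is read from that p.

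Fpgs (ENSMUSG00000009566.12, chr2:32682609-32704145) encodes folylpolyglutamate synthase, which adds glutamates to folates and antifolates and so keeps them in the cell. It measured 3.89, 4.26 and 3.49 FPKM in control, 6.02, 5.87 and 7.21 in PD-1 and 6.33, 6.99 and 6.23 in LY500307+PD-1 libraries. The groups were well separated, and the log2 fold change was 0.61 (SE 0.10, limma adjusted p = 0.473). Fpgs overlaps Eng on the other strand, and whether counting used strand is not given in the sources used here, so reads of the pair may be shared.

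The other higher genes differ in role. Adamts14, a protease that processes procollagen, was 3.63 to 4.52 FPKM in control and 5.27 to 10.1 in treated libraries, a log2 fold change of 0.80. Manf, a secreted factor induced by stress of the endoplasmic reticulum, was 42.4 to 46.6 FPKM in control and 51.0 to 65.8 in treated libraries (log2 fold change 0.37). Wfdc17, a small secreted protein made by myeloid cells, was 24.8 to 42.3 in control and 48.4 to 87.1 in treated libraries, with a log2 fold change of 0.84. Dcaf17, a substrate adaptor of a ubiquitin ligase, Tcp11x2 and Apol10b had log2 fold changes of 0.59, 0.68 and 0.54. All 6 treated libraries of each gene lay above all 3 controls. Dcaf17 was 0.420 to 0.660 FPKM in control and 1.12 to 1.62 in treated libraries. Tcp11x2 was 0.301 to 0.504 FPKM in control and 1.06 to 1.44 in treated libraries. Both passed the filter on low values only through the treated libraries, so their lack of overlap is tied in part to that filter. Dcaf17 overlaps Mettl8 and Manf overlaps Dcaf1 on the other strand. Manf also overlaps Rbm15b on the same strand.

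Rpgrip1, which encodes a protein of the photoreceptor connecting cilium, had values of a different shape. It was 0.00983, 0.00865 and 0.0242 FPKM in control libraries and 2.22 to 2.41 in 5 treated libraries, but 0.0332 in LY500307+PD-1 replicate 2. That library lay only just above the highest control, and Rpgrip1 overlaps Supt16 on the other strand. The gene passed the filter on low values only through the 5 other treated libraries. Its log2 fold change was 1.42 (SE 0.36) with all libraries, and 1.70 with a limma adjusted p of 0.00165 without LY500307+PD-1 replicate 2. It passed with no other library left out. Nothing is read from that p, because the library left out is the 1 treated library near the controls.

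**Figure D2:**
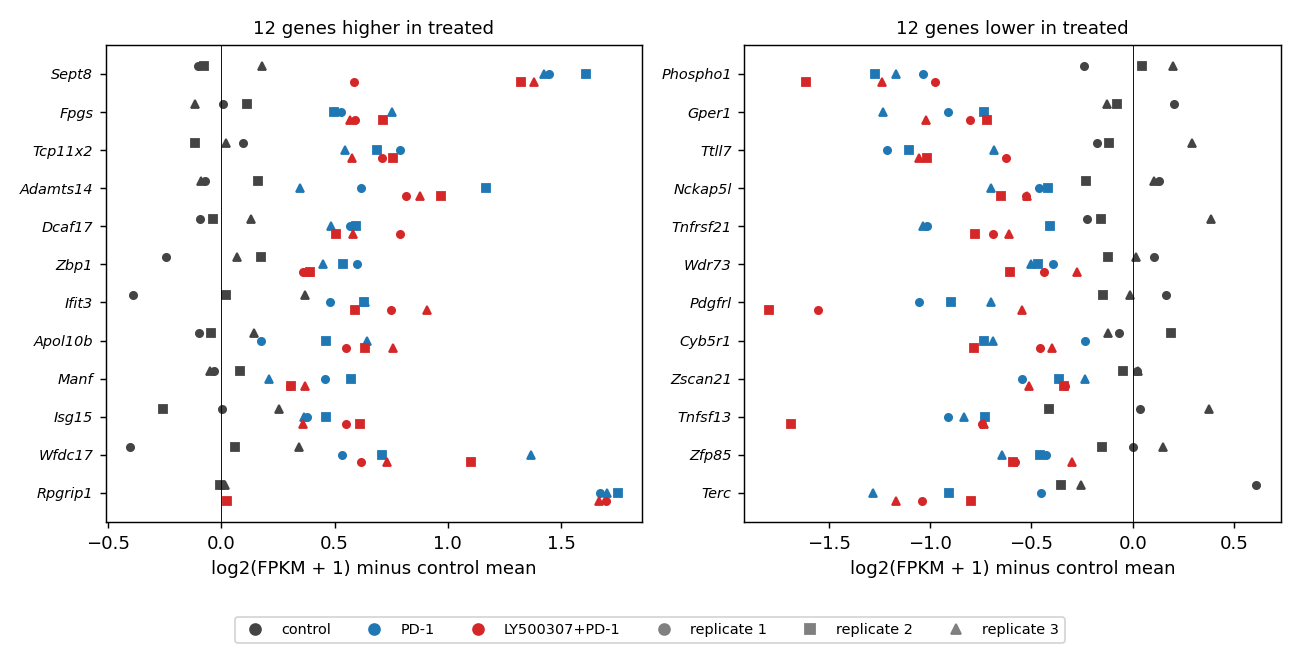
Level of the 12 higher and 12 lower genes of the naming rule in each library, as log2(FPKM + 1) minus the control mean (horizontal axis), with points coloured by group and shaped by replicate. Each gene's treated points lie on one side of its control points, and LY500307+PD-1 replicate 2 of Rpgrip1 sits beside the controls.

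On the lower side Phospho1 had the smallest p of all genes. Phospho1 (ENSMUSG00000050860.6, chr11:95824499-95832140) encodes a phosphatase that releases phosphate in matrix vesicles during bone mineralization. It was 14.5, 17.8 and 19.96 FPKM in control, 7.92, 6.56 and 7.15 in PD-1 and 8.29, 4.99 and 6.77 in LY500307+PD-1 libraries. No treated library came near a control one, and the means were 17.4 ± 2.77 (SD, n = 3) and 6.95 ± 1.17 (SD, n = 6) FPKM. The log2 fold change was -1.22 (SE 0.15, unadjusted p = 1.04e-05, limma adjusted p = 0.145). It was -1.16 (SE 0.18) for PD-1 and -1.27 (SE 0.18) for LY500307+PD-1, and the difference between the treated groups was -0.12 with a 95% interval of -0.52 to 0.29. Without LY500307+PD-1 replicate 2 the log2 fold change was -1.14 and the limma adjusted p 0.0432. Phospho1 passed with no other library left out. Phospho1 overlaps Abi3 on the other strand and Zfp652 on the same strand, so reads may be shared.

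Gper1 (ENSMUSG00000053647.4, chr5:139423151-139427800) encodes a G protein-coupled estrogen receptor of the cell membrane. It was 2.20, 1.64 and 1.55 FPKM in control, 0.480, 0.675 and 0.185 in PD-1 and 0.594, 0.692 and 0.371 in LY500307+PD-1 libraries. Treated libraries were all below 1 FPKM and controls all above it, with a log2 fold change of -0.90 (SE 0.16, limma adjusted p = 0.658). Gper1 thus passed the filter of 1 FPKM in 3 libraries only through the controls, and its lack of overlap is tied in part to that filter. Against PD-1 the LY500307+PD-1 value differed by 0.11 (95% interval -0.33 to 0.55). Gper1 overlaps 3110082I17Rik on the other strand. Esr1, the classical estrogen receptor alpha, was 0.586 to 1.20 FPKM and Esr2, estrogen receptor beta, 0.00 to 0.0685, and neither passed the filter on low values. Of 11 tested estrogen receptor and target genes, 4 were higher and 7 lower, with a median of -0.10 that ran from -0.16 without LY500307+PD-1 replicate 3 to -0.01 without control replicate 2. Gper1 alone of these lay below every control library, as 1.00% of all genes did.

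Tnfsf13, the ligand APRIL that sustains B and plasma cells, was 5.87, 4.04 and 7.71 FPKM in control, 2.57, 3.04 and 2.76 in PD-1 and 3.00, 1.09 and 3.03 in LY500307+PD-1 libraries, a log2 fold change of -0.94 (SE 0.24). Tnfrsf21, death receptor 6, was 10.9 to 17.2 FPKM in control and 5.80 to 9.47 in treated libraries (log2 fold change -0.76). Neither group overlapped its control for either gene, and Tnfsf13 shares sequence with the readthrough gene Tnfsfm13, so its values are uncertain.

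Ttll7, a ligase that adds glutamates to tubulin, was 2.71 to 4.12 FPKM in control and 0.806 to 1.71 in treated libraries, with a log2 fold change of -0.95. Pdgfrl, a secreted protein related to the platelet-derived growth factor receptor, was 9.67 to 12.2 in control and 2.41 to 7.11 in treated libraries, with a log2 fold change of -1.09. Terc, the RNA template of telomerase, was 1.49 to 3.85 FPKM in control and 0.311 to 1.33 in treated libraries (log2 fold change -0.94). Of the treated libraries only PD-1 replicate 1 reached 1 FPKM, so Terc passed the filter on low values through the controls. The log2 fold changes of Nckap5l, Wdr73, Cyb5r1, Zscan21 and Zfp85 lay between -0.39 and -0.55. Nckap5l and Zfp85 each overlap an antisense gene, and Foxp3, described with the T cell genes, overlaps genes on the other strand.

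The 24 genes were chosen for not overlapping on this division, which practically fixes their exact two-sided permutation p at or near 0.0119, the smallest that 84 divisions can give, so nothing is read from it. Of all 13990 genes, 125 (0.893%) had that smallest p. Between the treated groups, 0 of the 24 genes differed at an unadjusted p under 0.05 by limma, with differences (LY500307+PD-1 minus PD-1) from -0.58 to 0.22. Choosing genes by a small pooled p, with all treated libraries on 1 side, favours genes alike in both treated groups. Nothing is therefore read from that 0 either. Over all genes, limma called 0 between LY500307+PD-1 and PD-1, 398 (2.84%) had an unadjusted p under 0.05, and 7 of the 257 genes without overlap were among these. A p that misses the threshold does not show that the treated groups were alike.

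Of the 29 lists, that of type I interferon had the most members above every control library. All 27 tested genes of the type I interferon list had a log2 fold change above 0, against 48.7% of all genes, and 8 lay above every control library, against 0.836%. Their median was 0.24 (0.22 for PD-1 and 0.36 for LY500307+PD-1), against -0.0045 over all genes, and 10 were higher at an unadjusted p under 0.05, against 1.60% of all genes. Summed, the 27 genes ran from 864 to 1043 FPKM in control and from 1063 to 1225 in treated libraries. None passed the limma test.

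Within the list, Isg15 (chr4:156199424-156200818) encodes a ubiquitin-like modifier induced by interferon. It was 86.3, 72.0 and 103 FPKM in control, 112, 119 and 111 in PD-1 and 127, 132 and 111 in LY500307+PD-1 libraries. The log2 fold change was 0.45 (SE 0.11), and control replicate 3 was nearest to the treated libraries. Ifit3 (chr19:34583531-34588731), an antiviral protein of the tetratricopeptide family, was 20.5, 27.6 and 35.4 FPKM in control, 38.2, 42.6 and 42.7 in PD-1 and 46.4, 41.4 and 51.8 in LY500307+PD-1 libraries, a log2 fold change of 0.66 (SE 0.15). Again control replicate 3 was the highest control.

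Zbp1 (chr2:173206612-173218923), a sensor of Z-form nucleic acids, was 21.1, 28.6 and 26.5 FPKM in control, 38.7, 37.0 and 34.8 in PD-1 and 32.7, 33.4 and 33.2 in LY500307+PD-1 libraries (log2 fold change 0.45, SE 0.10). Ifit1, which binds foreign RNA ends, was 9.93 to 12.97 FPKM in control and 13.4 to 21.4 in treated libraries (log2 fold change 0.55). Ifit3b, a near copy of Ifit3, overlapped, with a log2 fold change of 0.69, and reads shared between Ifit3 and Ifit3b make both uncertain.

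The list's score did not separate the groups. It was -0.37, -0.40 and 0.11 in control, -0.01, 0.15 and 0.05 in PD-1 and 0.15, 0.13 and 0.20 in LY500307+PD-1 libraries, so control replicate 3 lay among the treated libraries. The same control library had the highest T and NK cell score, 0.44, against -0.48 and -0.44 in the other controls. The part of cell content in the result was not tested. Leaving out 1 library at a time put the median between 0.21 and 0.49 with 24 to 27 genes higher, and it was 0.26 without LY500307+PD-1 replicate 2.

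For interferon gamma, 18 of 22 tested genes were higher, with a median of 0.27 (0.26 for PD-1 and 0.30 for LY500307+PD-1), and 9 were higher at an unadjusted p under 0.05. Over all genes, 48.7% had a log2 fold change above 0 and 1.60% were higher at that p. This was the 1 list of 29 whose scores did not overlap: -0.17, -0.16 and -0.16 in control, 0.06, 0.11 and 0.03 in PD-1 and 0.08, -0.03 and 0.25 in LY500307+PD-1 libraries. Of all single genes, 1.84% did not overlap, and the lists were chosen with earlier results of these data known. Whether 1 list of 29 is more than chance gives was not tested. Summed levels were 791 to 831 FPKM in control and 905 to 1045 in treated libraries. Gbp7, a guanylate-binding protein, was 18.7, 15.9 and 15.99 FPKM in control, 20.3, 24.04 and 20.1 in PD-1 and 22.4, 20.5 and 23.4 in LY500307+PD-1 libraries. Igtp, an immunity-related GTPase, was 136, 133 and 115 FPKM in control, 151, 154 and 146 in PD-1 and 170, 154 and 173 in LY500307+PD-1 libraries. These were the 2 genes of the list above every control, against 0.836% of all genes, with log2 fold changes of 0.35 (SE 0.09) and 0.30 (SE 0.09). Igtp overlaps Irgm2 and Gbp7 overlaps the pseudogene Gm43802, each on the same strand, so reads may be shared. Cxcl10, a chemokine that draws T cells, overlapped, at 9.03 to 11.3 FPKM in control and 11.1 to 16.4 in treated libraries. Cxcl9, 1 of the 4 lower genes, was 15.9 to 28.6 FPKM in control and 14.6 to 24.1 in treated libraries (log2 fold change -0.03, SE 0.19). Ifng itself overlapped, with a log2 fold change of 0.20 (SE 0.21). With 1 library left out the median was 0.22 to 0.32 and 17 to 21 genes were higher; it was 0.31 without LY500307+PD-1 replicate 2.

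All 20 tested antigen presentation genes were higher, by a median of 0.09, against 48.7% of all genes with a log2 fold change above 0. Psmb9, a subunit of the immunoproteasome, was 35.5, 35.2 and 35.4 FPKM in control, 36.9 to 47.4 in PD-1 and at least 45.3 in LY500307+PD-1 libraries, a log2 fold change of 0.30 (SE 0.10), and alone lay above every control, as 0.836% of all genes did. The count fell to 13 of 20 without control replicate 2, with medians from 0.03 to 0.21 over all single omissions.

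**Figure D3:**
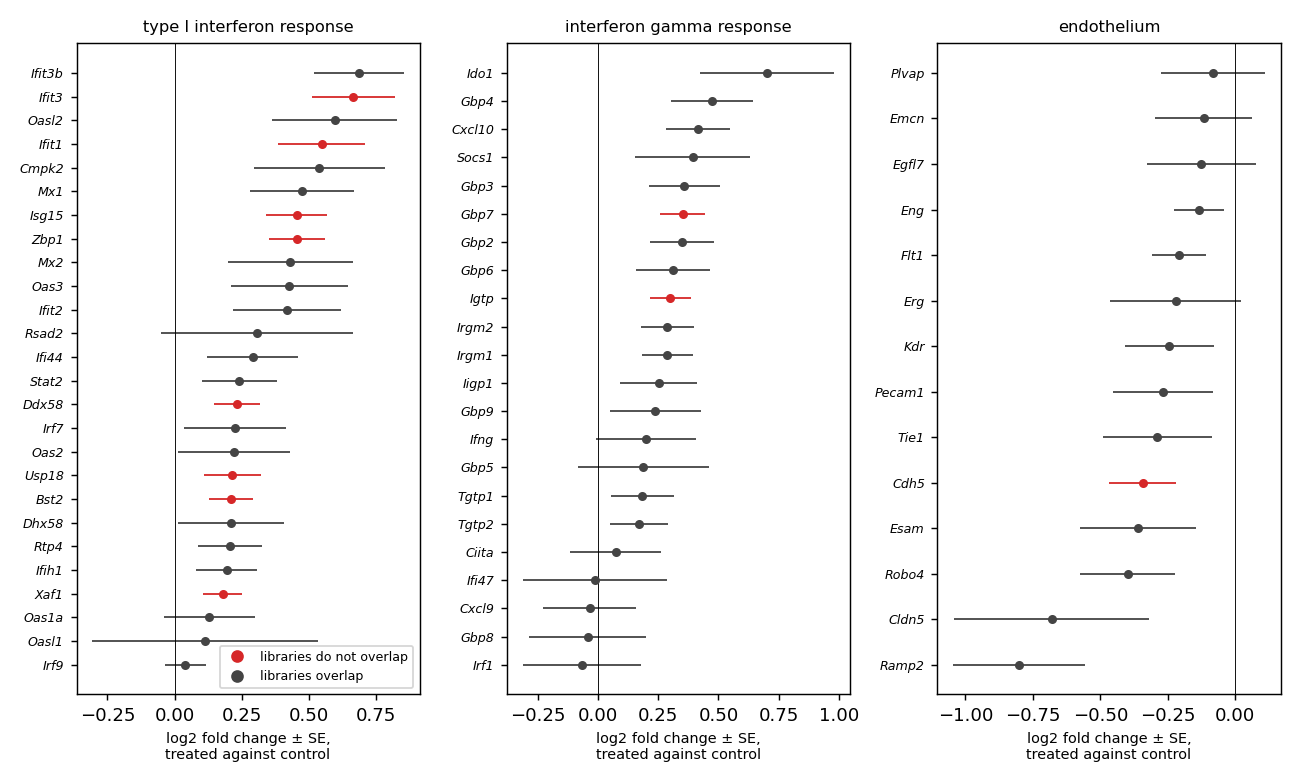
Log2 fold change of the 6 treated against the 3 control libraries (horizontal axis, points with standard error bars) for tested genes of the type I interferon, interferon gamma and endothelium lists, of which 1 type I interferon gene whose libraries overlap is not drawn. Red points mark genes whose libraries do not overlap, 8 of 27, 2 of 22 and 1 of 14.

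Endothelial genes lay on the other side. None of 14 tested genes had a log2 fold change above 0, against 48.7% of all genes. The median was -0.26 (-0.12 for PD-1 and -0.40 for LY500307+PD-1). Of the 14, 3 were lower at an unadjusted p under 0.05 by limma, against 1.64% of all genes. Cdh5, the cadherin of endothelial junctions, was 23.8, 19.4 and 17.7 FPKM in control, 17.2, 16.3 and 16.1 in PD-1 and 16.8, 15.7 and 12.4 in LY500307+PD-1 libraries. It was the 1 gene of the list below every control, where 1.00% of all genes lay, though PD-1 replicate 1 was close to the lowest control (log2 fold change -0.34, SE 0.12). Ramp2, a partner of the adrenomedullin receptor, overlapped at 3.26 to 5.78 FPKM in control and 1.54 to 4.04 in treated libraries (log2 fold change -0.80). The Ramp2 gene shares its strand and part of its span with Vps25. Scores were 0.35, -0.01 and 0.27 in control, 0.16, -0.13 and 0.19 in PD-1 and -0.36, -0.14 and -0.33 in LY500307+PD-1 libraries, so the PD-1 libraries overlapped the controls. With 1 library left out the median was -0.40 to -0.16 and at most 2 genes were higher.

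In some other lists the median or the count rested on few libraries. Over all genes, 48.7% had a log2 fold change above 0. Of 20 T and NK cell genes 16 were higher, and their median was 0.19. With 1 library left out, the median ran from 0.06 without control replicate 2 to 0.49 without control replicate 3, with 11 to 20 genes higher, and it was 0.28 without LY500307+PD-1 replicate 2. Foxp3, the factor of regulatory T cells, was 0.0766, 0.194 and 2.36 FPKM in control and 1.45 to 2.67 in treated libraries, so the groups overlapped through control replicate 3. Mast cell genes had the highest median, 0.82, but 0 of 7 were higher without control replicate 1, in which Mcpt4, a mast cell protease, was 0.302 FPKM against 64.1 in control replicate 3. Skeletal muscle genes had a median of 0.34, and 0.11 without LY500307+PD-1 replicate 2. All 20 cell cycle genes were higher in the pooled comparison, by a median of 0.15, but the treated groups had medians of opposite sign, -0.05 with 7 of 20 higher for PD-1 and 0.36 with 20 of 20 higher for LY500307+PD-1. Without control replicate 3, 5 of the 20 were higher, and without LY500307+PD-1 replicate 2, 9 were, with a median of -0.02. Among 24 genes of cholesterol biosynthesis 22 were higher, and their median was 0.23 (0.07 for PD-1, 0.38 for LY500307+PD-1) and 0.15 without LY500307+PD-1 replicate 2. This list moved less: with 1 library left out its median was 0.14 to 0.32, and 17 to 22 genes were higher.

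**Figure D4:**
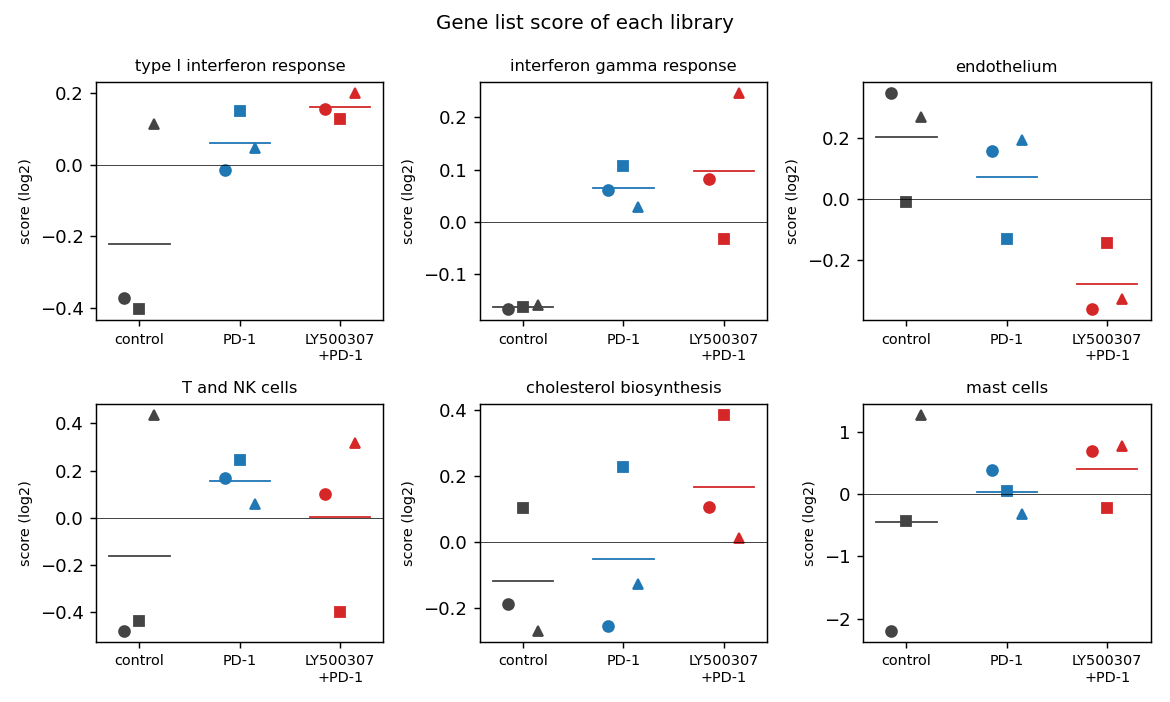
Score of 6 gene lists (vertical axis, mean log2(FPKM + 1) relative to the 9-library mean) in each library, by group, with group means as lines and replicate shown by point shape. Interferon gamma scores are below -0.15 in the 3 control and above -0.04 in the 6 treated libraries, and every other list shown overlaps.

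Genes of the PD-1 and macrophage axes gave no separation. Pdcd1, which encodes PD-1, was 1.47 to 4.03 FPKM in control and 1.08 to 5.31 in treated libraries (log2 fold change 0.33, SE 0.34). Cd274 was 12.1 to 21.3 in control and 10.1 to 29.7 in treated libraries (0.12, SE 0.30). Csf1, the macrophage growth factor, and its receptor Csf1r had log2 fold changes of -0.04 (SE 0.29) and -0.32 (SE 0.30), with 4 of 19 macrophage genes higher, though 16 were without control replicate 3. Of 13 tested checkpoint genes 8 were higher, with a median of 0.02. Neutrophil genes had a median of 0.02 and erythroid genes of 0.04, and in both the PD-1 and LY500307+PD-1 medians had opposite signs, 0.18 and -0.25 for neutrophils and 0.76 and -0.65 for erythroid genes. Neutrophil scores of the treated groups overlapped, at -0.62 to 0.83 in PD-1 and -0.85 to 0.57 in LY500307+PD-1 libraries, lowest in LY500307+PD-1 replicate 2. Erythroid scores were 0.19 to 0.95 in PD-1 and -1.31 to -0.05 in LY500307+PD-1 libraries. Whether those groups differ was not tested for the lists.

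**Figure D5:**
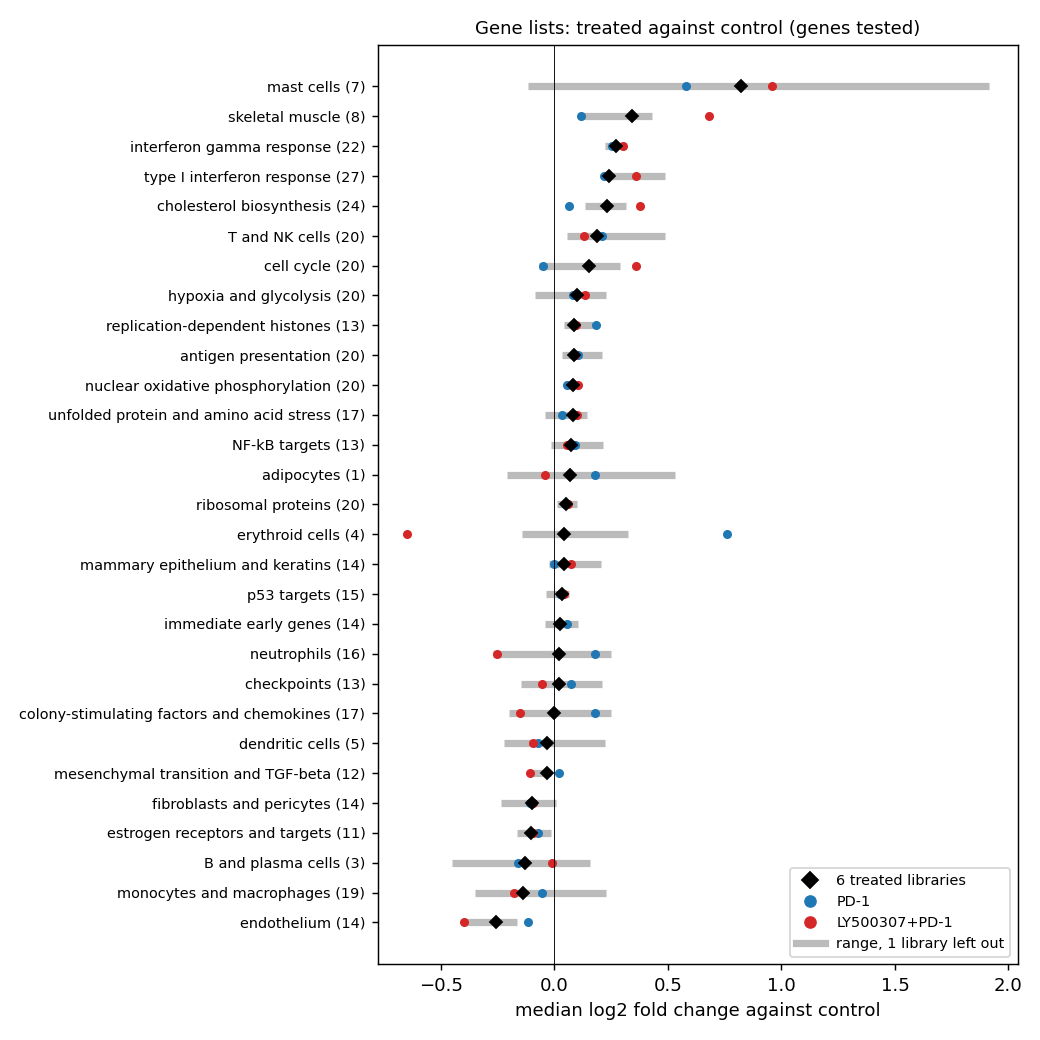
Median log2 fold change against control (horizontal axis) of the 29 gene lists, for the 6 treated libraries (diamonds) and each treated group (circles), with grey bars for the range over fits that leave out 1 library. Type I interferon and interferon gamma bars stay above 0 and the endothelium bar below 0. Bars of other lists also stay on 1 side, such as T and NK cells (0.06 to 0.49), cholesterol biosynthesis (0.14 to 0.32) and estrogen receptors and targets (-0.16 to -0.01). Of the 29 bars, 17 cross 0, and the mast cell bar runs from -0.12 to 1.91.

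Over the 29 lists, 22 medians were above 0 and 7 below, 12 of 423 tested members (genes on more than 1 list counted each time) lay above every control library, against 0.836% of all genes, and 3 below, against 1.00%. The count below is near the share over all genes. There were 22 lists with no such member. Outside the interferon lists and Psmb9, the 1 member above was Rpl7, a ribosomal protein at 357 to 449 FPKM in control and 463 to 513 in treated libraries. Besides Gper1 and Cdh5, the 1 member below was Tgfb1, the growth factor, at 30.2 to 31.4 FPKM in control and 25.6 to 29.9 in treated libraries. The ribosomal RNA gene model Gm42418 ran from 1896 to 2653 FPKM in control and from 1165 to 3380 in treated libraries.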

How the data were processed

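Total RNA was depleted of ribosomal RNA and made into stranded libraries, per the labels' protocols. Tools listed in the submitters' processing notes are CASAVA 1.8, DESeq2 and Bowtie2, and mm9 is the only build listed; their order and roles are not given. The authors deposited 1 table of 52550 genes by 9 libraries, which names no unit, and its values were read as FPKM. Gene IDs matched GENCODE M21 for 52403 rows (99.7%), so coordinates given are GRCm38. Whole reads could not be recovered, so no count test was run.

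Values were analysed as log2(FPKM + 1), with genes at 1 or more in at least 3 libraries. Fold changes on this scale understate low genes. limma 3.58.1 in R 4.3.3 (trend and robust) fitted 2 sides, or 3 groups for each treated group, with Benjamini-Hochberg adjustment over all 13990 genes. Single genes also had an exact two-sided permutation test over 84 divisions. The code was tested on simulated data. Mitochondrial genes such as mt-Nd1 are listed at 0.

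The groups, gene lists and tests were chosen with earlier results of these data known. The naming rule took the 12 genes higher and 12 lower with the smallest p among those without overlap, the first 2 and the 3 of smallest p in each list, and 6 fixed genes. Of its 145 tested genes, 68 were carried through the alternatives. Alternatives were quantile normalization, no filter, a pseudocount of 0.1, the replicate number as a block, a 3-group fit and leaving out each library. Some items are not reported here.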

Additional observations from a re-analysis of the deposited data

Results flagged for a closer look

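In 13 of 97 groups of 6 treated values, 1 library lay apart from the other 5 by more than 0.625 of the whole range. Chance flags about 1 in 20 groups, and the genes are not independent. In LY500307+PD-1 replicate 2, Krt5, a basal keratin, was 64.4 FPKM (next 11.5) and Acta1, skeletal muscle actin, 65.6 (next 15.2). The same library was highest for Sqle at 17.9 FPKM and Rpl7 at 513, and lowest for Rpgrip1 at 0.0332 and Tnfsf13 at 1.09. Its scores were 0.885 for mammary epithelium, 1.29 for skeletal muscle and -0.402 for T and NK cells. LY500307+PD-1 replicate 1 was lowest for Sept8 at 10.4 FPKM and highest for Dcaf17 at 1.62. LY500307+PD-1 replicate 3 was lowest for Cdh5 at 12.4 FPKM, and PD-1 replicate 1 was lowest for Ifit3b at 12.4. By limma, 0 named genes differed between the treated groups at an adjusted p under 0.05.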

How the results depend on the processing

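Quantile normalization, no filter, a pseudocount of 0.1 and the 3-group fit each called 0 genes by limma in either direction and 0 between the treated groups. With the replicate number as a block, 0 genes were called, and 250 were higher and 235 lower at an unadjusted p under 0.05. Of 9 same-numbered pairs of libraries from different groups, 3 had deviations from the group means correlated over 0.1 (r from -0.12 to 0.27). Pairs with other numbers ran from -0.36 to 0.26. These values do not decide whether the numbers pair the libraries. With 1 library left out, limma called 0 to 2 genes higher, 0 to 1 lower and 0 to 2 between the treated groups. Genes without overlap then numbered 149 to 438 above and 190 to 600 below, both highest without control replicate 2, where fewer controls had to be passed. At an unadjusted p under 0.05, 184 to 336 genes were higher and 192 to 399 lower with 1 library left out, and 554 were lower with no filter. No filter gave 177 above and 214 below without overlap, from more genes tested. Of 949 recomputed fold changes of 68 genes, 934 kept their direction, and 0 of the 24 leading genes turned. The 10 that turned did so with 1 library left out, with log2 ranges of -0.10 to 0.32 for Cd8a, -0.19 to 1.91 for Cpa3, -0.081 to 2.74 for Mcpt4, -0.12 to 2.29 for Cma1, -0.085 to 0.40 for Hba-a2, -0.21 to 0.19 for Cxcl9, -0.10 to 0.29 for Cd274, -0.29 to 0.24 for Csf1, -0.72 to 0.12 for Csf1r and -0.10 to 0.38 for Top2a. Of 29 list medians, 17 changed sign with some library left out and 1 under another alternative. Depth is approximate, so no counting interval is given.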

Other observations

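Some genes had values at 2 separate levels, with 1 library at the level of the other side, and limma called them only when that library was left out. They were found by those calls, after their values were seen. Emp1, an epithelial membrane protein, was 19.6 and 11.7 FPKM in control replicates 2 and 3, 104.6 in control replicate 1 and 101.4 to 151 in treated libraries. Rab22a, a small GTPase of endosomes, was 1.55 and 2.77 FPKM in control replicates 1 and 3, 11.9 in control replicate 2 and 9.98 to 11.4 in treated libraries. Control replicate 2 was likewise at the treated level for Rprd1b, at 5.62 FPKM against 0.956 and 1.37 in the other controls, and for Mrps34, at 15.01 against 27.5 and 32.8. Pip5k1c, a lipid kinase, was 9.34 and 10.1 FPKM in control replicates 1 and 2, 32.1 in control replicate 3 and 21.4 to 27.9 in treated libraries.

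Between the treated groups the pattern was the same. Trim25, a ubiquitin ligase of the RIG-I pathway, was 4.87 and 3.65 FPKM in PD-1 replicates 2 and 3 but 17.1 in replicate 1, with 15.6 to 19.1 in the other 6 libraries. Nek7, a kinase needed for the NLRP3 inflammasome, was 27.6 and 28.1 FPKM in PD-1 replicates 2 and 3, 3.21 in replicate 1 and 3.61 to 6.88 elsewhere. The cause was not tested.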
